A study of Homo sapiens with 12 samples.

Results

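Nonsense-mediated decay removes mRNAs that carry a stop codon upstream of an exon junction. The RNA helicase UPF1 is recruited to terminating ribosomes, UPF2 and the paralogs UPF3A and UPF3B link it to the exon junction complex, and the kinase SMG1, held in check by SMG8 and SMG9, phosphorylates it. Phosphorylated UPF1 then binds SMG6, an endonuclease that cuts the mRNA, or SMG5, an adaptor that leads to decapping and deadenylation. The results below describe how the transcripts of these 9 genes (UPF1, UPF2, UPF3A, UPF3B, SMG1, SMG5, SMG6, SMG8 and SMG9) were spliced. The genes were chosen by name. The inclusion table held 724 splicing events for them out of 721551 in all, and 659 of the 724 had at least 10 reads in every one of the 12 samples, against 340848 in the whole table.

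The samples were poly(A) RNA of MEC1, an established human B cell line from chronic lymphocytic leukemia, in 4 groups of 3. SF3B1 was wild type (WT) or K700E, and cells of each genotype had DMSO or H3B-8800. SF3B1 is the part of the U2 snRNP that holds the branch point, K700E is its commonest leukemia mutation, and H3B-8800 is a splicing modulator that acts on the SF3B complex. Cells had 6 h of 75 nM H3B-8800 or of the vehicle. The 3 K700E samples of a treatment had the line codes 41, 38 and 15b, with base changes at cDNA positions 2098 and 2106 of SF3B1. WT replicates 1 and 2 had the codes a and b and no base change, and WT replicate 3 (34b) carried the change at position 2106 alone. How the K700E lines were made is not given in the sources used here, so a difference between K700E and WT cannot be told apart from other differences between the lines. Each code gave both a DMSO and an H3B-8800 sample. The labels do not say whether a and b were separate lines, so p-values measure only the spread between these samples, which may be partly technical.

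Libraries held 45840233 to 56676172 spliced reads. All 8 B cell markers examined were above 1 RPM (a gene's share of all spliced reads times 1000000), with sums of 3625 to 6804 RPM, against 0.771 to 5.04 for 8 T and NK cell markers, 0.386 to 1.72 for 7 myeloid markers and 11.3 to 20 for 6 fibroblast and epithelial markers. In H3B-8800 the share of reads at exon-intron junctions was 4.5% to 6.05%, and in DMSO it was 1.86% to 2.43%.

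H3B-8800 changed the splicing of all 9 decay factors in WT and in K700E cells. Exons were skipped more often and introns were retained more often, with exceptions in SMG8, UPF3A and UPF2. SMG8 had no testable exon, and UPF3A had no intron called higher. UPF2 had 0 of 5 tested introns called higher in WT. Of the 659 events, 203 had a mean level between 1% and 99% and passed the other filters: 79 exons, 91 introns, 17 alternative 3' splice sites and 16 alternative 5' splice sites. An event was called when the limma test gave an adjusted p (Benjamini-Hochberg, across the 120387 tested events) under 0.05 and the group means differed by at least 10 percentage points. In WT, 54 of 203 were called (26.6%), and 31.4% of the 120387 were. In K700E, 56 were called (27.6%), against 30.7% of the 120387. The decay factors were thus called at a share near that of the table. Events that are close to 0% or 100% in DMSO can have entered the test only because the drug moved them, so these counts do not describe all 659.

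By kind of event, 25 of 79 exons fell in WT and 24 in K700E, where 39.6% and 38% of all exons fell. No exon of the 9 genes rose past the threshold, and 0.532% of all exons did in WT and 0.46% in K700E. Of 91 introns, 27 were retained more in WT and 29 in K700E, against 32% and 31.6% of all introns, and UPF3A intron 1 was the single intron called lower, in K700E (0.402% of all introns; 0 of 91 in WT, against 0.389%). In WT 1 alternative 3' site was called lower, in UPF3A (3.12% of all 3' sites), and 1 alternative 5' site was higher, in SMG1 (5.13% of all 5' sites), and 2 3' sites, in UPF2 and UPF3B, were higher in K700E (8.14%). The median exon difference over the 79 was -4.87 points in WT and -4.79 in K700E, against -6.79 and -6.41 for all exons. The median intron difference over the 91 was 4.75 and 5.1 points, against 4.99 and 5.07 for all introns. The genotypes shared 50 calls of the same direction, which is 92.6% of the WT calls and 89.3% of the K700E calls. In the test of the difference of the drug effect between the genotypes, limma called 0 of the 203 events (12 at an unadjusted p under 0.05), against 0.00748% of all events.

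**Figure D1:**
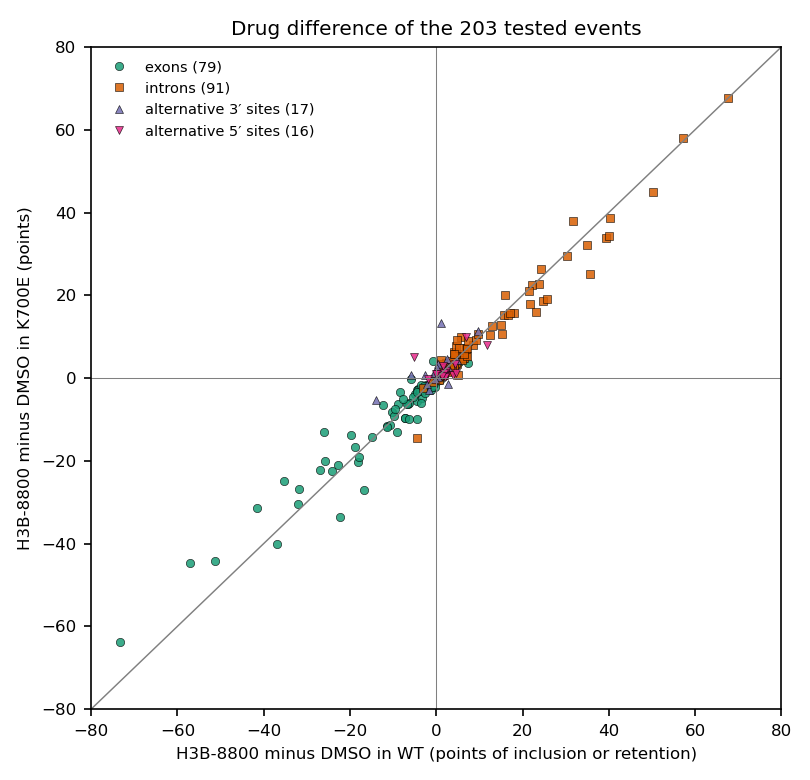
Difference between H3B-8800 and DMSO in percentage points for the 203 tested events of the 9 decay factors, WT on the x axis and K700E on the y axis; each point is 1 event, the marker gives its kind and the grey diagonal marks equal differences. Exons lie mainly at lower left and introns at upper right, with 50 events called in the same direction in both genotypes.

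The exons with large falls differ in what their loss does to the reading frame, and 5 of them are shown for that reason. They are printed 5' to 3' on the sense strand from the GENCODE release 29 transcripts (GRCh38, the build of the deposited table), and the capitals mark the last 3 bases, which form the exon side of the 5' splice site. SMG5 exon 11 (chr1:156266541-156266678, 138 nt), UPF1 exon 14 (chr19:18856877-18857020, 144 nt) and UPF3A exon 5 (chr13:114286519-114286629, 111 nt) have lengths that are multiples of 3, and the annotated stop codon stays in frame without them. SMG1 exon 52 (chr16:18830219-18830369, 151 nt) and UPF2 exon 8 (chr10:11979057-11979165, 109 nt) do not, and leaving them out of the reference transcript gives a stop codon 1961 and 1798 nt before the last exon junction.
SMG5 exon 11: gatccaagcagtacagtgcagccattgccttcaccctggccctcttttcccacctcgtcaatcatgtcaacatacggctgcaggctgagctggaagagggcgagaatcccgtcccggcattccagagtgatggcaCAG
UPF1 exon 14: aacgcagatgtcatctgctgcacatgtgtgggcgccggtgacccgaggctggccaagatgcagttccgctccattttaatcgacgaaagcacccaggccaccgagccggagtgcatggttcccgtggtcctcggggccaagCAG
UPF3A exon 5: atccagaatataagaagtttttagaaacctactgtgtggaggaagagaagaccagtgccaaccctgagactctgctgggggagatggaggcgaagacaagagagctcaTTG
SMG1 exon 52: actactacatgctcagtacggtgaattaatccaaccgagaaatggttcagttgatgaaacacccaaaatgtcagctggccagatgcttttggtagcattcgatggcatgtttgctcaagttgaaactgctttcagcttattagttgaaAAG
UPF2 exon 8: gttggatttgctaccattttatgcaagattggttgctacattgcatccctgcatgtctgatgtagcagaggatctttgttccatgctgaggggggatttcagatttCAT

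Over all coding exons of the reference transcripts that could be tested, 24 were called lower in at least 1 genotype and 40 were not. Of the 24, 7 had a length that is a multiple of 3 and 17 did not. Skipping any of these 17 gave an earlier stop codon more than 50 nt before the last junction, the feature that marks an mRNA for the decay pathway itself. Of the 40 exons not called, 16 had a length that is a multiple of 3 and 23 gave an earlier stop. The median GC content was 52.1% for the 24 exons and 45.7% for the 40. These medians pool genes of unlike GC content and unlike share of called exons. The GC difference was therefore not separated from differences between the genes. Their median lengths were 134.5 and 132.5 nt, and 14 of the 24 and 25 of the 40 ended in AG.

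**Figure D2:**
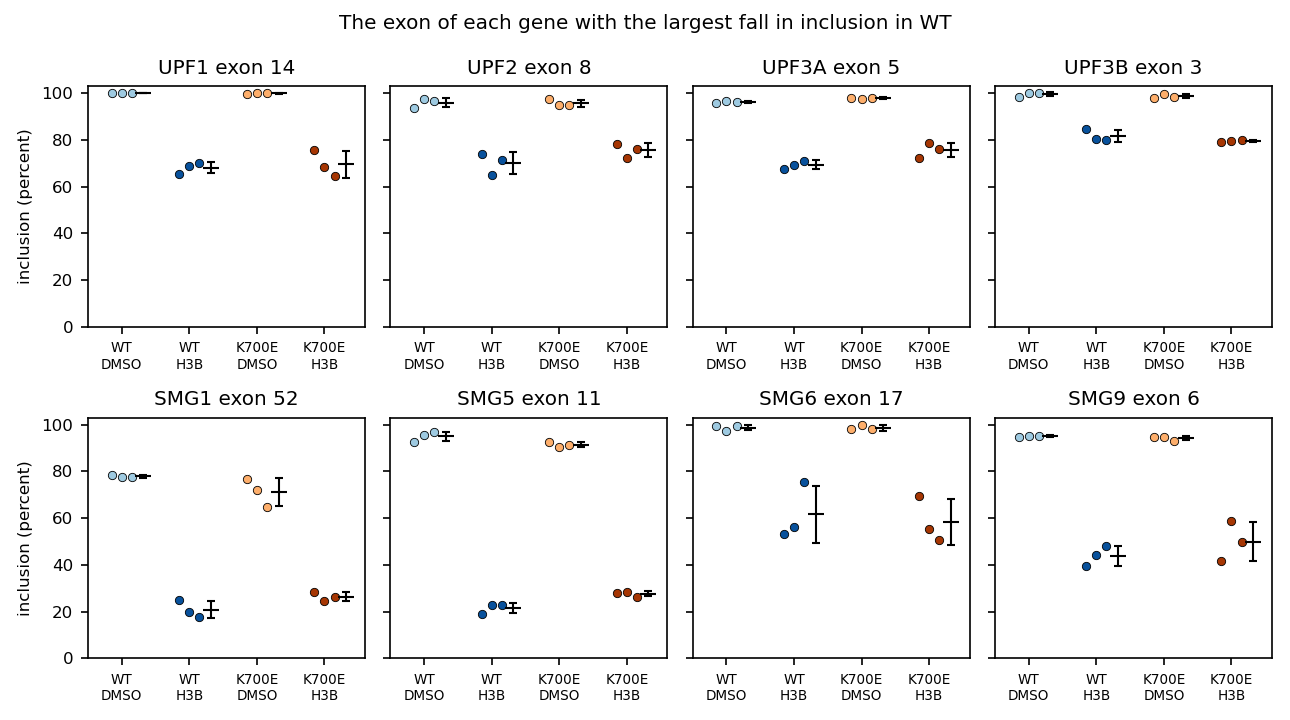
Inclusion level in percent of the exon with the largest fall in WT in each of 8 decay factor genes, by group; points are the 3 samples of a group and the bar at their right is the mean with its SD. In each panel the H3B-8800 samples lie below all DMSO samples, and SMG5 exon 11 falls furthest, from 94.9% to 21.5% in WT. SMG8 had no testable exon.

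UPF1, the helicase at the centre of the pathway, had 4 of 8 tested exons called lower and 8 of 16 tested introns called higher in both genotypes. Of all exons, 39.6% were called lower in WT and 38% in K700E, and of all introns 32% and 31.6% were called higher. Exon 14 was included at 100%, 100% and 100% in the 3 WT DMSO samples and at 65.3%, 68.9% and 69.9% in WT H3B-8800. The K700E samples were at 99.6%, 100% and 100% in DMSO and at 75.7%, 68.5% and 64.3% in H3B-8800. No treated sample overlapped a DMSO sample (limma, Benjamini-Hochberg adjusted p = 6.57e-08 in WT and 1.5e-07 in K700E). Exon 5, listed with another end than the annotated exon, went from 99.8% ± 0.381 to 77% ± 5.97 in WT cells and from 99.9% ± 0.161 to 79% ± 1.54 in K700E (SD, n = 3 each, as for all later values with ±). Exon 15 went from 99.8% to 80.1% in WT cells and from 99.8% to 86% in K700E, and exon 20 fell by less, to 88% and 87.9%.

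Retention in UPF1 was uneven along the gene. Intron 11 (chr19:18855243-18855924, 682 nt) was retained at 1.54%, 3.08% and 3.1% in WT DMSO and at 40.9%, 43.7% and 43.9% in WT H3B-8800. K700E samples were at 2.56%, 2.86% and 1.61% in DMSO and at 44.2%, 49.9% and 28.9% in H3B-8800, with the third treated sample lowest. Intron 13, just upstream of exon 14, went from 0.664% ± 0.501 to 40.7% ± 1.93 in WT cells and from 0.783% ± 0.381 to 35% ± 2.86 in K700E. Intron 5 reached 41.3% in WT and 35.5% in K700E, and intron 9 reached 31.9% and 38.1% from 0.203% and 0.257% in DMSO. The other 4 called introns, 7, 14, 15 and 23, reached 17.6% to 37.9% in WT and 17.2% to 34.5% in K700E. Over 21 introns with 10 reads and balanced junctions, with no filter on level, mean retention in UPF1 was 1.2% ± 0.181 in WT DMSO and 15% ± 0.445 in WT H3B-8800, and it was 1.1% ± 0.102 and 13.9% ± 1.33 in K700E.

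**Figure D3:**
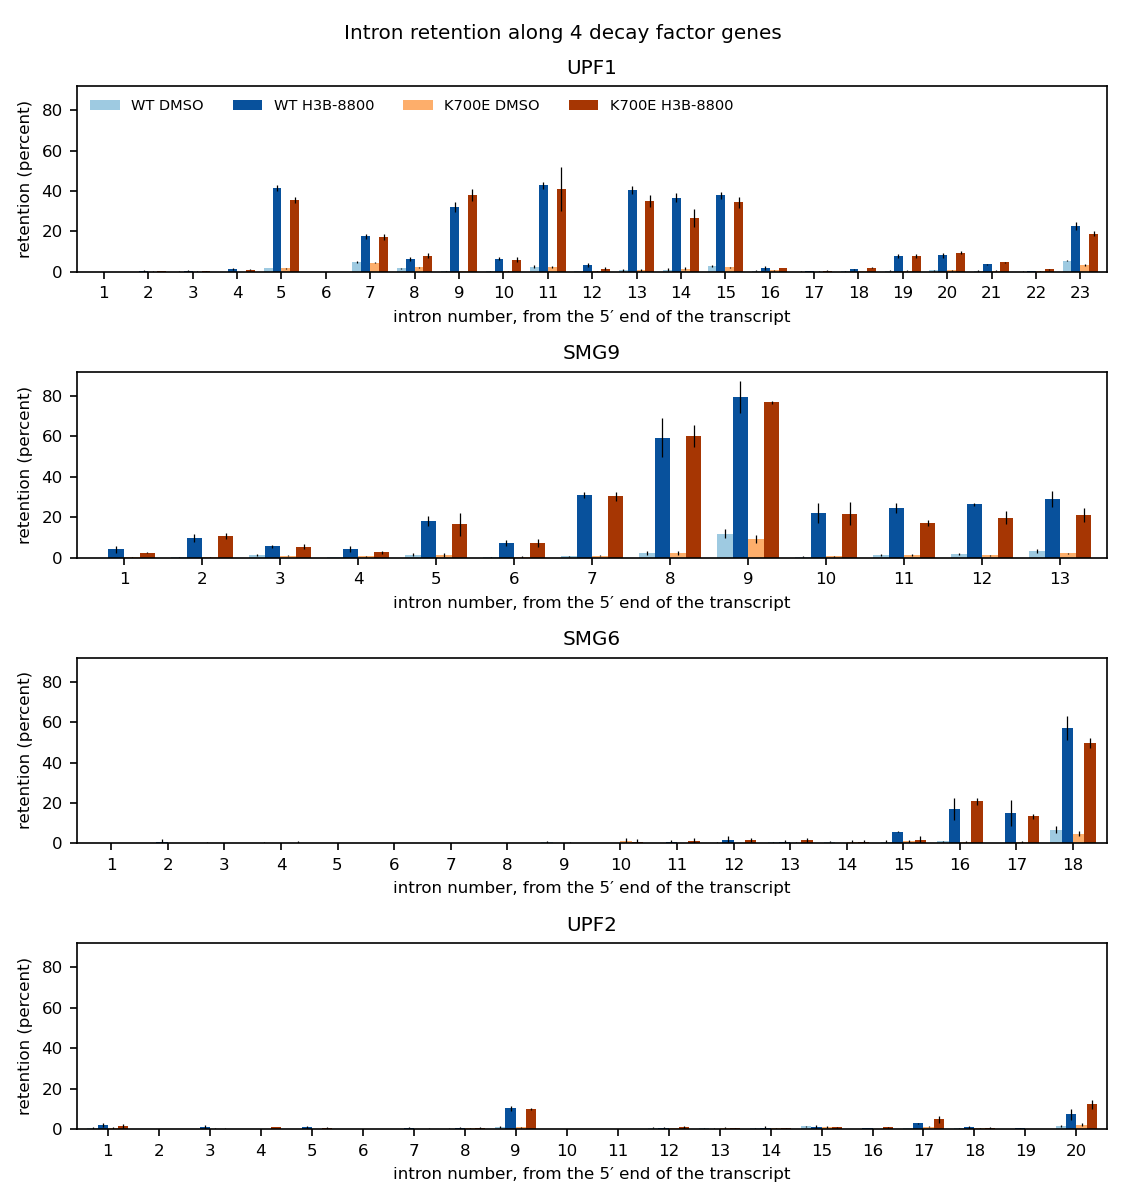
Retention in percent of the introns of UPF1, SMG9, SMG6 and UPF2 by intron number; bars are group means of 3 samples with SD, and introns with too few reads or unbalanced junctions have no bar. Retention in H3B-8800 reaches 79.4% at SMG9 intron 9 in WT and is high in the last introns of SMG6, while in UPF2 the highest bar is 12.3%.

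UPF2, the bridge between UPF1 and UPF3 proteins, changed little in its introns and lost a single exon. Exon 8 was included at 93.5%, 97.4% and 96.7% in WT DMSO and at 74%, 65% and 71.1% in WT H3B-8800. The K700E values were 97.3%, 94.7% and 94.9% in DMSO and at 78.1%, 72.2% and 76.2% in H3B-8800. The drug samples were below all DMSO samples in both genotypes (limma adjusted p = 1.1e-05 and 4.64e-05). Intron 20 (8557 nt, the longest called) rose in K700E, from 2.25% ± 0.666 to 12.3% ± 2.37, and moved by 5.64 points in WT, from 1.69% to 7.33%. Its K700E difference was at the threshold of 10 points and fell to 9.66, 9.24 and 9.41 points without K700E DMSO replicate 2, K700E H3B-8800 replicate 1 and K700E H3B-8800 replicate 2. An alternative 3' splice site 46 nt into the upstream intron, absent from the annotation, was used at 0.623% ± 0.556 in K700E DMSO and at 11.9% ± 1.07 in K700E H3B-8800. In WT it went from 0.296% to 10%, a difference of 9.75 points. Mean retention over 17 UPF2 introns was 0.424% in WT DMSO and 1.72% in WT H3B-8800.

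UPF3A and UPF3B are paralogs that bind UPF2 and the exon junction complex, and each lost 1 exon. UPF3A exon 5 was included at 95.8%, 96.7% and 96.1% in WT DMSO and at 67.4%, 69.3% and 71.1% in WT H3B-8800. In K700E it was at 98%, 97.4% and 98% in DMSO and at 72.3%, 78.5% and 76.1% in H3B-8800, again with no overlap (limma adjusted p = 1.88e-07 and 1.14e-07). UPF3B exon 3 (chrX:119851495-119851601, 107 nt) went from 99.5% ± 0.918 to 81.6% ± 2.69 in WT cells and from 98.5% ± 0.853 to 79.4% ± 0.375 in K700E.

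Among introns with balanced junctions, UPF3A was the decay factor whose introns did not rise with the drug. Of its 9 introns with 10 reads, 5 had balanced junctions, and the others are not described here. Mean retention over its 5 balanced introns was 13.1% ± 2.59 in WT DMSO and 13.4% ± 2.5 in WT H3B-8800, and 13.4% ± 1.6 and 12.1% ± 0.505 in K700E, with overlapping samples in both. Intron 1 (174 nt) was called lower in K700E, at 22.2%, 42.4% and 19% in DMSO and 11.4%, 9.68% and 19.2% in H3B-8800. These groups overlap, the intron had 21 to 59 reads, and the limma adjusted p of 0.0427 became 0.0855 with the line as a block. Leaving out single libraries lost the call in 8 of 12 cases, and without K700E DMSO replicate 2 the adjusted p was 0.192. An alternative 3' splice site of UPF3A with 29 extra nt, present in a processed transcript of the annotation, was called lower in WT, from 18.7% ± 9.17 to 4.73% ± 2.79, on 20 to 104 reads. Without WT DMSO replicate 3, its highest sample at 29.2%, the difference was -8.79 points.

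UPF3B held the single decay factor event called between K700E and WT. It is an alternative 3' splice site 17 nt inside intron 9 (chrX:119838052-119838366), absent from the annotated transcripts, and 17 nt is not a multiple of 3. In WT DMSO it was used at 0%, 0.231% and 0.169%, where 0 of 520 reads allows up to 0.577%. In K700E DMSO it was used at 8.97%, 6.9% and 8.17%. In H3B-8800 it was at 1.36%, 0.61% and 1.67% in WT and at 27%, 18.5% and 18.2% in K700E. All K700E samples were above all WT samples of both treatments.

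**Figure D4:**
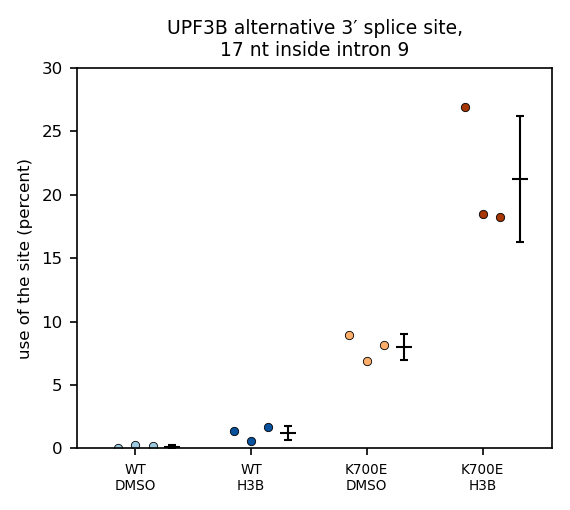
Use in percent of the UPF3B alternative 3' splice site 17 nt inside intron 9, by group; points are the 3 samples and the bar at their right is the mean with its SD. K700E samples lie at 6.9% to 8.97% in DMSO and at 18.2% to 27% in H3B-8800, and WT samples stay at or below 1.67%.

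Under H3B-8800 the UPF3B site differed by 20 points between K700E and WT (log2 odds difference 4.36 ± 0.483 SE, limma adjusted p = 0.000466), the 1 call of 203 in that comparison. Of all events, 0.503% were called there, and 2.73% of alternative 3' sites were called higher. In DMSO the difference of 7.88 points (adjusted p = 7.63e-05) stayed below the 10 points required, so 0 of 203 events were called between K700E and WT in DMSO (1 passed at any size, against 1.86% of all events, and 23 had an unadjusted p under 0.05), against 0.358% of all events. The drug raised the site by 13.2 points in K700E (adjusted p = 0.0105) and by 1.08 points in WT (adjusted p = 0.000339). On the log2 odds scale the drug effect did not differ detectably between genotypes (-1.07 ± 0.683 SE, adjusted p = 0.816). Retention of intron 9 itself rose in both, from 2.76% ± 0.784 to 24.5% ± 5.41 in WT cells and from 5.78% ± 0.836 to 23.8% ± 4.89 in K700E.

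SMG1, the kinase that phosphorylates UPF1, had 8 of 16 tested exons called lower in both genotypes, against 39.6% and 38% of all exons. Over all 46 SMG1 exons with 10 reads, with no filter on level, mean inclusion changed by -5.78 points in WT and -4.82 in K700E. The median gene changed by -4.68 and -4.5 points. Exon 52 was included at 78.6%, 77.7% and 77.4% in WT DMSO and at 24.7%, 19.8% and 17.7% in WT H3B-8800. For K700E the levels were 76.6%, 72.1% and 64.9% in DMSO and at 28.5%, 24.6% and 26.1% in H3B-8800. The treated samples lay far below the DMSO samples (limma adjusted p = 3.1e-07 and 3.51e-06), and the exon was already skipped in part of the transcripts without drug. The next exon, 53, went from 86.3% ± 1.85 to 44.8% ± 0.322 in WT cells and from 82.4% ± 3.49 to 50.9% ± 4.67 in K700E. Exon 38 was at 99.7% ± 0.238 in WT DMSO and 64.5% ± 6.13 in WT H3B-8800, and at 100% and 75.1% ± 2.1 in K700E. Exon 60, listed with another end than annotated, was at 99.8% ± 0.335 and 83% ± 2.92 in WT and at 99.8% ± 0.306 and 72.8% ± 5.54 in K700E. A 58-nt exon of another annotated transcript fell by 25.9 points in WT and by 13.1 points in K700E, where its limma adjusted p of 0.0465 became 0.059 with the line as a block. Leaving out single libraries lost the K700E call in 10 of 12 cases, with -8.96 points and an adjusted p of 0.183 without K700E DMSO replicate 2.

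Introns 43 and 44 of SMG1, on either side of exon 44, were retained at 26% and 25.7% in WT H3B-8800 and at 28% and 24.1% in K700E H3B-8800, from below 2% in every DMSO group mean. Introns 8 and 37 reached 13.3% and 15.9% in WT. An alternative 5' splice site with 77 extra nt rose in WT from 1.95% ± 1.2 to 13.7% ± 2.54 and moved by 7.96 points in K700E. The annotation names 7 partial copies of SMG1 on chromosome 16, so SMG1 reads may be shared with them and its levels are uncertain. 

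SMG9 had the highest mean intron retention of the 9 genes under H3B-8800. In DMSO the highest was UPF3A. Intron 9 (chr19:43734496-43737596, 3101 nt) was retained at 9.4%, 13.8% and 12.2% in WT DMSO and at 70.6%, 85.8% and 81.8% in WT H3B-8800. In K700E it was at 8.89%, 7.33% and 11.3% in DMSO and at 76.2%, 77.2% and 77.2% in H3B-8800. Most of the SMG9 transcripts measured in treated cells thus kept this intron (limma adjusted p = 2.6e-07 and 2.46e-07). Intron 8 went from 2.16% ± 1.02 to 59.4% ± 9.75 in WT cells and from 2.24% ± 0.81 to 60.4% ± 5.52 in K700E, and intron 7 reached 30.9% ± 1.49 and 30.4% ± 2.2. In all, 8 of its 13 introns were called higher in WT and 9 in K700E, against 32% and 31.6% of all introns. Mean retention over the 13 introns was 1.92% in WT DMSO and 24.6% in WT H3B-8800, a rise larger than in 94.4% of the 7707 genes with at least 3 such introns, whose median rise was 3.27 points. UPF1 was at 85.7% and UPF2 at 28.7% in the same order.

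SMG9 exon 6, listed as a 58-nt form that shares an end with the annotated exon, was included at 94.6%, 95.2% and 95.2% in WT DMSO and at 39.3%, 44.1% and 47.9% in WT H3B-8800. The same exon in K700E was at 94.7%, 94.9% and 93.1% in DMSO and at 41.7%, 58.6% and 49.6% in H3B-8800. SMG9 exon 2 went from 100% to 87% ± 4.19 in K700E and by -9.13 points in WT. SMG8 has 5 exons, and its 2 measured exons stayed at or above 99.5% in every sample. Its intron 4 (chr17:59213602-59214804, 1203 nt) was retained at 2.83%, 2.7% and 2.67% in WT DMSO and at 28.7%, 24.1% and 21.6% in WT H3B-8800, and K700E went from 2.16% ± 0.697 to 24.7% ± 3.35.

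SMG5, the adaptor to decapping, held the largest exon change of the 9 genes. Exon 11 was included at 92.6%, 95.5% and 96.6% in WT DMSO and at 19%, 22.6% and 22.9% in WT H3B-8800. K700E samples had 92.5%, 90.6% and 91.1% in DMSO and at 28%, 28.5% and 26.4% in H3B-8800. The exon had 1380 to 2878 reads per sample, and the groups were far apart (limma adjusted p = 9.11e-09 in WT and 5.49e-08 in K700E). The difference of the effect between genotypes was not called (adjusted p = 0.455). Exon 16, listed with another end than annotated, went from 94.9% to 63% in WT cells and from 96.2% to 69.3% in K700E, and exon 20 (75 nt) from 99.6% to 80.8% and from 99.3% to 82.7%. Introns 20 and 21, the last of the gene, rose to 27.4% ± 2.36 and 17.2% ± 0.0999 in WT.

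SMG6, the endonuclease, changed most at its 3' end. Intron 18, the last (chr17:2061623-2065072, 3450 nt), was retained at 5.78%, 8.76% and 5.77% in WT DMSO and at 51.8%, 55.8% and 63.5% in WT H3B-8800. In K700E it was at 3.88%, 4.36% and 6.34% in DMSO and at 49.5%, 52.5% and 47.7% in H3B-8800. Introns 16 and 17 reached 17% ± 5.31 and 15% ± 6.53 in WT. Exon 17, which those introns flank, went from 98.6% ± 1.11 to 61.6% ± 12.1 in WT cells and from 98.6% ± 1.2 to 58.4% ± 9.81 in K700E. Exon 13 went from 98.4% to 76.1% in WT cells and from 99.5% to 65.9% in K700E, and exon 9 from 98.6% to 80.4% and from 97.4% to 77.1%. SMG6 events were read thinly, with as few as 24 reads in a sample for exon 9, and their spread in H3B-8800 is wide.

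The amount of spliced transcript was measured as reads across annotated exon-exon junctions of each gene, in RPM. In bulk RNA, fewer expressing cells and less RNA per cell cannot be told apart. A junction that skips an exon is counted only where it is annotated, so skipping can lower a gene's sum. Per intron, WT DMSO levels ran from 11.1 RPM in SMG5 through 9.75 in UPF1, 8.19 in UPF3A, 7.28 in SMG1, 6.17 in UPF3B, 6.01 in UPF2 and 5.6 in SMG9 to 3.45 in SMG8 and 1.68 in SMG6. SMG6 and SMG8 were the lowest of the 9 in DMSO.

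Called at a limma adjusted p under 0.05 over 10182 genes, 6 of the 9 changed with H3B-8800 in each genotype, where 59.3% of all genes changed in WT and 52% in K700E. Lower were UPF2, UPF3A, SMG6 and SMG9 (4 of 9, against 40.8% of all genes in WT and 35.8% in K700E), and higher were SMG1 and SMG8 (2 of 9, against 18.5% and 16.2%). The median over the 9 was -0.27 in WT and -0.21 in K700E on the log2 scale, against -0.28 and -0.22 for all genes. Scaling by median of ratios moves the median of all genes to -0.01 and 0 and so shifts every gene by about the size of that median. The main fit did not pair the samples by line. With the line as a block, 8 of the 9 were called in WT and 7 in K700E, which added UPF1 in WT and UPF3B in both.

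SMG6 was at 33, 27 and 30.9 RPM in WT DMSO and at 9.07, 9.06 and 9.08 RPM in WT H3B-8800. In K700E it was at 45.3, 33.4 and 33 RPM in DMSO and at 18.7, 11.4 and 12 RPM in H3B-8800. The log2 difference was -1.74 ± 0.186 (SE, adjusted p = 1.54e-05) in WT and -1.43 ± 0.186 (adjusted p = 9.31e-05) in K700E, and relative to the median gene it was -1.46 and -1.21. SMG9 was at 68.7, 67.9 and 81.9 RPM in WT DMSO and at 18.7, 26 and 29.2 RPM in WT H3B-8800. For K700E the levels were 79, 76.3 and 89.1 RPM in DMSO and at 38.4, 28.3 and 39.7 RPM in H3B-8800. Its log2 difference was -1.58 ± 0.174 in WT (adjusted p = 1.84e-05) and -1.21 ± 0.174 in K700E (adjusted p = 0.000181). With exon-intron reads added to the exon-exon reads, SMG9 was still lower, by -1.2 in WT and -0.88 in K700E.

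**Figure D5:**
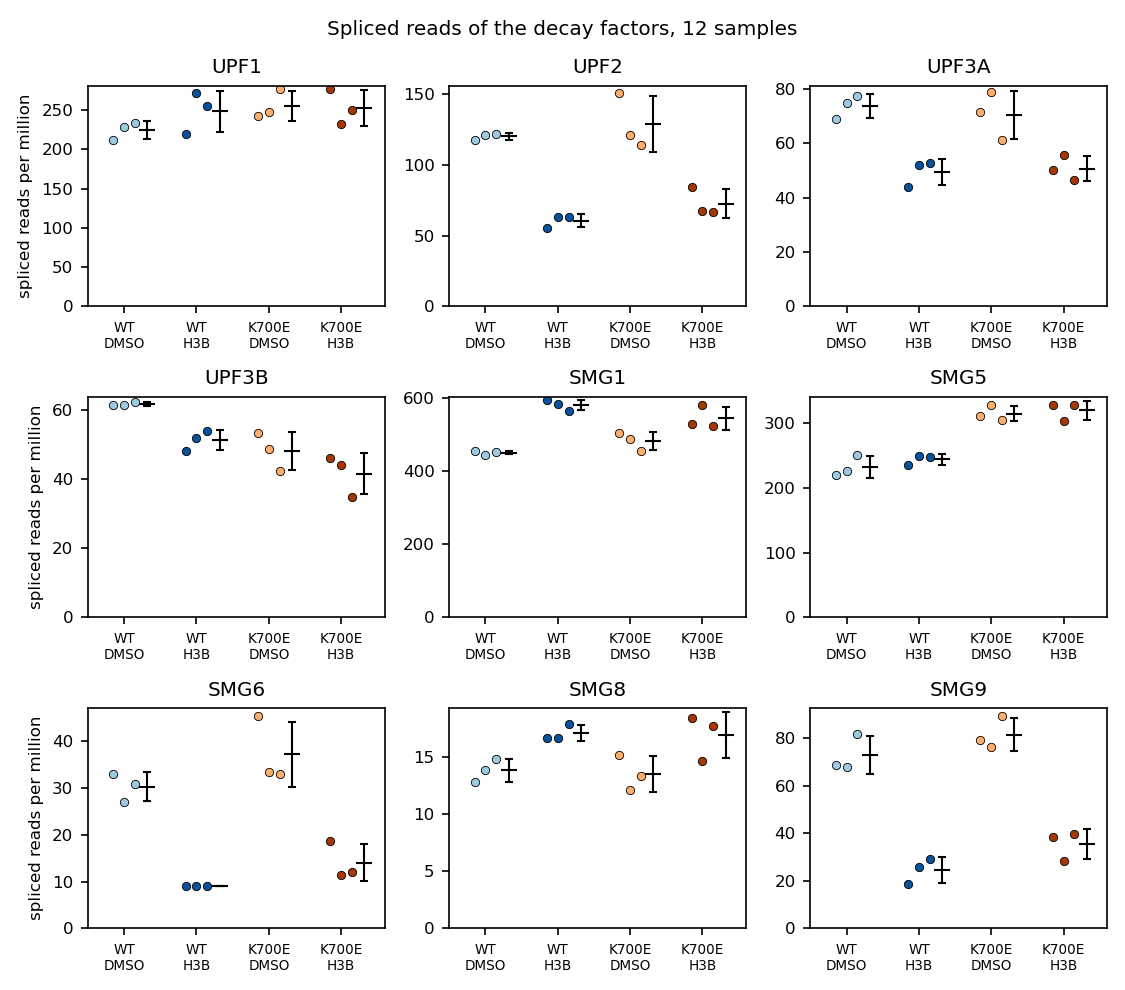
Spliced reads (RPM) of each of the 9 decay factor genes by group, on axes that start at 0; points are the 3 samples and the bar at their right is the mean with its SD. SMG6, SMG9 and UPF2 are lower in H3B-8800 in both genotypes, and SMG5 is higher in K700E than in WT in both treatments.

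UPF2 was at 118, 121 and 122 RPM in WT DMSO and at 55.3, 62.9 and 63.5 RPM in WT H3B-8800, and K700E went from 151, 121 and 114 RPM to 84.2, 67.1 and 66.4 RPM. The log2 difference was -0.99 ± 0.121 (adjusted p = 3.84e-05) in WT and -0.83 ± 0.121 (adjusted p = 0.000203) in K700E by limma. UPF3A fell by less, with log2 differences of -0.57 and -0.47. In K700E the UPF3A call was lost with median-of-ratios scaling (-0.26, limma adjusted p = 0.0653). UPF3B had log2 differences of -0.27 (adjusted p = 0.067) and -0.21 (adjusted p = 0.146), which were called with the line as a block (limma adjusted p = 0.000693 and 0.00363) and were -0.00014 and 0.0029 with median-of-ratios scaling.

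SMG1 went from 451 ± 4.76 to 581 ± 14.5 RPM in WT cells and from 482 ± 25.2 to 545 ± 31 RPM in K700E, log2 differences of 0.37 and 0.18. Taking the median over its introns in place of the sum, neither was called (0.17, limma adjusted p = 0.151, and 0.04, adjusted p = 0.772), and the K700E call was lost without K700E DMSO replicate 2, K700E DMSO replicate 3 or K700E H3B-8800 replicate 2 (limma adjusted p = 0.0533, 0.111 and 0.105). SMG8 went from 13.8 ± 1.01 to 17 ± 0.69 RPM in WT cells and from 13.5 ± 1.53 to 16.9 ± 2.02 RPM in K700E, with limma adjusted p of 0.0497 and 0.0459. Leaving out single libraries lost the WT call in 8 of 12 cases and the K700E call in 10 of 12, with limma adjusted p up to 0.153 and 0.154. Without K700E DMSO replicate 1 or K700E H3B-8800 replicate 2, both remained. UPF1 had log2 differences of 0.15 in WT and -0.02 in K700E, neither called. In WT it was called with the line as a block (limma adjusted p = 0.0472) and with median-of-ratios scaling (0.41, adjusted p = 0.00208).

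SMG5 was the decay factor whose spliced reads were called different between genotypes. It was at 220, 226 and 252 RPM in WT DMSO and at 311, 328 and 305 RPM in K700E DMSO. In H3B-8800 it was at 235, 250 and 248 RPM in WT and at 328, 303 and 329 RPM in K700E. All K700E samples were above all WT samples, with log2 differences of 0.44 ± 0.0677 in DMSO (limma adjusted p = 0.00647) and 0.39 ± 0.0677 in H3B-8800 (adjusted p = 0.00606). Of all genes, 2.91% were called higher in K700E in DMSO and 11.1% in H3B-8800. Fitted on the 6 H3B-8800 samples alone, the second had an adjusted p of 0.0501. The drug did not change SMG5 detectably (0.07 in WT and 0.02 in K700E), although with median-of-ratios scaling it was called higher in both (0.34, limma adjusted p = 0.000672, and 0.24, adjusted p = 0.00701). For UPF3B, lower in K700E by 0.37 in DMSO (adjusted p = 0.0963), median-of-ratios scaling gave a call in DMSO and in H3B-8800 (-0.43 in each, limma adjusted p = 0.0377 and 0.0231). In H3B-8800, SMG6 and SMG9 were higher in K700E by 0.59 and 0.53, more than SMG5. Neither was called (limma adjusted p = 0.0571 and 0.0639), and the SMG9 samples of the genotypes overlapped. No gene of the 9 differed in its drug response between genotypes, with limma adjusted p of at least 0.996 each, against 0.0491% of all genes.

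Among 28 other genes of the pathway (the exon junction complex, further decay factors, translation termination and cap factors, and decapping and decay enzymes), 27 were measured and 9 rose and 8 fell with H3B-8800 in WT, while 10 rose and 4 fell in K700E. Of all genes, 18.5% rose and 40.8% fell in WT, and 16.2% and 35.8% in K700E. DHX34, a helicase that acts with SMG1, rose by 1 in WT and 0.92 in K700E on the log2 scale. Among the called genes, the largest falls in WT were in CTIF, which links the nuclear cap-binding complex to translation (-1.3), and in DCP1B, a decapping cofactor (-1.23). In K700E the largest called falls were in DCP1B (-1.08) and in ETF1, the release factor that reads stop codons (-0.64), and CTIF, at -0.73, was not called (limma adjusted p = 0.132). Between genotypes in DMSO, NBAS was the single called gene of the 27, lower in K700E by 0.76 (limma adjusted p = 0.00541), where 1.95% of all genes were called lower.

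Splicing of these genes changed at a rate near that of the table, with 107 of 383 events called in WT (27.9%) and 108 in K700E (28.2%). DCP1A, a decapping activator, lost an exon that went from 91.9% ± 2.12 to 31.3% ± 1.45 in WT cells and from 91.6% ± 2.33 to 37.1% ± 3.05 in K700E. NBAS lost an exon that went from 93.9% ± 4.11 to 40.9% ± 0.855 and from 86.1% ± 7.64 to 26.7% ± 6.37. An exon of GSPT1, the partner of ETF1, went from 99.9% to 51.7% in WT and, in K700E, from 99.8% to 54.5%. An exon of NCBP1, the large cap-binding subunit, was at 99.6% in WT DMSO and 53.7% in WT H3B-8800, and at 99.7% and 53.8% in K700E. In the core of the exon junction complex, a MAGOH exon was at 67.2% in WT DMSO and 32.8% in WT H3B-8800, and at 65.6% and 35.1% in K700E. A CASC3 exon was at 98.9% and 65.1% in WT and at 98.5% and 67.8% in K700E. ACIN1, of the peripheral complex, retained an intron at 34% ± 4.31 in WT H3B-8800 from 2.47% ± 0.45 in DMSO, and at 36.9% ± 2.26 from 2.46% ± 0.731 in K700E. An alternative 3' site of ACIN1 was at 37.4% ± 8.32 in WT DMSO and 12.8% ± 10.7 in WT H3B-8800, and at 52.5% ± 3.06 and 17.8% ± 7.31 in K700E. An ACIN1 exon was the 1 event of the list called between genotypes in DMSO, at 9.15% ± 1.39 in WT and 23.3% ± 3.58 in K700E. That is 0.261% of the 383 events, against 0.358% of all events.

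The mean profile of the 9 genes over the 12 samples, each gene centred on its own mean log2 RPM, was most like those of SAP30BP, USP4, MCM2, MEPCE and HDAC8, with root mean square distances of 0.0462 to 0.0699 on the log2 scale, against a median of 0.396 over all genes. This is a measure of likeness only. The 9 genes did not share a direction, with log2 drug differences in WT from -1.74 in SMG6 to 0.37 in SMG1. Their mean profile therefore need not match any single gene of the 9.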

How the data were processed

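Poly(A) RNA of 12 samples was sequenced as stranded libraries in 3 runs each, per the labels' protocols. The submitters' processing notes name cutadapt 2.4 and hg38; no source used here names the aligner or event caller. The authors deposited inclusion levels in percent per event and sample, with the read numbers behind each value in a text column. In 4598029 values of at least 10 reads, 0 differed by more than 1 point from inclusion over all reads, and 16884 cells held no read numbers. Another 36 sample columns, 3 per sample, were not used.

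Events with at least 10 reads in all 12 samples, a mean level of 1% to 99%, balanced intron junctions in at least 6 samples, and excluding the first site of alternative site events were fitted with limma 3.58.1 in R 4.3.3 (log2 of inclusion plus 0.5 over exclusion plus 0.5 reads, 4 groups, variance trend on mean log2 reads). Genes with a mean of at least 50 exon-exon reads were fitted as log2 RPM with 0.5 reads added. Both fits were checked on simulated data. P-values were Benjamini-Hochberg adjusted over the whole table. Reads carry no molecular identifiers, so the limit of 3 reads for a level of 0 covers counting error only. Per gene, kind of event and comparison, up to 3 called events with the largest difference are given in full. The 9 genes and all lists were chosen with earlier results of these data known. Same-line DMSO and H3B-8800 samples are paired by the line codes in the labels: their deviations from the group means correlated at 0.658 to 0.925 over genes and at 0.0147 to 0.0659 over events. Alternatives were other filters, pseudocounts, weights, scalings, the line as block, and leaving out each library. One gene of the pathway list is not reported here by name.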

Additional observations from a re-analysis of the deposited data

How the results depend on the processing

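Of the single events and genes, 6369 of 6420 event values and 783 of 828 gene values kept their direction and side of the threshold under the alternatives, and 0 reversed. With a size threshold of 5 points, 88 events were called in WT, 89 in K700E and 1 between genotypes in DMSO. With no filter on intron balance, 61 of 218 events were called in WT and 63 in K700E. Between genotypes in H3B-8800, 3 events were called with weights from the read numbers, 3 with a test on percentage points (both adding SMG1 exons 38 and 60) and 2 with the first sites included. For spliced reads, median-of-ratios scaling called 2 genes between genotypes in DMSO and 2 in H3B-8800, and fitting only the 6 samples called 0 in H3B-8800.

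Leaving out each library in turn gave 52 to 57 called events in WT, 51 to 59 in K700E, 5 to 6 called genes in WT, 4 to 6 in K700E and 1 to 3 between genotypes in H3B-8800. Of those, SMG6 was added without K700E DMSO replicate 1, and SMG6 and SMG9 without K700E H3B-8800 replicate 2. With the replicate block by line, 54 events were called in WT and 54 in K700E, and 8 and 7 genes; beyond the calls named beside the results, the block changed none among the events and genes examined. A sample with under 50 reads was behind 18 of 19 tested events in SMG6, 6 of 15 in UPF3A, 1 of 21 in SMG9 and 0 in the other genes.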
